A study of Mus musculus with 4 samples.

Results

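The Myc, Max and Mxd network is a set of related transcription factors, and 8 of its genes are described here: Myc, Mycn, Max, Mxd3, Mxd4, Mnt, Mga and Mlx. They were taken by gene symbol from a table of 15429 genes, in which each symbol had 1 row. The set was chosen with earlier results of these data known. The libraries held polyadenylated RNA of mouse epiblast stem cells, pluripotent cells derived from the post-implantation embryo, of the line OE7 with an Oct4 reporter transgene (labelled Oct4-GFP and Oct4-Gip). There were 2 libraries of cells given Tox4 esiRNA, a mixture of short interfering RNAs against Tox4, and 2 of cells given Luc esiRNA, the control. All of them were at passages 21 to 25, were kept on fibronectin with Activin A (20 ng/ml) and Fgf2 (12 ng/ml), and received 1000 ng of esiRNA with lipofectamine in 6-well plates. The labels give 1 cell line and do not say whether libraries of a group were separate cultures, so p-values here rest on the spread among 4 libraries, and that spread may be technical.

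Proteins of the network carry a basic helix-loop-helix leucine zipper domain and bind DNA as pairs, with the sequence CACGTG, called the E-box, as their best known site. Myc proteins pair with Max and activate genes of growth, ribosome production and metabolism, whereas Mxd proteins, Mnt and Mga compete for Max and repress, so that the balance of the partners matters as well as the amount of each. Mlx stands in a parallel branch, in which it pairs with the glucose-responsive factors MondoA and ChREBP and with some Mxd proteins and Mnt. In mouse pluripotent cells Myc and Mycn are known for overlapping roles in proliferation and self-renewal.

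Depth and identity of the libraries were as follows. Whole reads worked back from the values came to 14739242 and 12778059 in the Tox4 esiRNA libraries and to 19008831 and 14998212 in the Luc esiRNA libraries. Tox4 was at 8.77 ± 0.172 FPKM (fragments per kilobase of transcript, scaled to library size) with Tox4 esiRNA and at 17.1 ± 0.573 FPKM with Luc esiRNA (SD, n = 2 each). All 7 markers of primed epiblast stem cells were present, the lowest being Otx2 at 30.4 and 29.7 FPKM with Tox4 esiRNA and at 34.8 and 31.8 FPKM with Luc esiRNA, and Pou5f1, the gene of Oct4, was at 583 and 613 FPKM with Tox4 esiRNA against 588 and 582 FPKM with Luc esiRNA. Of these 7 markers Sox2 rose, at 93.2 and 87.6 FPKM with Tox4 esiRNA against 76.3 and 76.4 FPKM with Luc esiRNA (0.24 on the log2 scale, limma adjusted p = 0.0355), whereas the other 6 did not pass. Of 6 naive markers 4 had a row: Esrrb and Tfcp2l1 stayed below 1 FPKM in all 4 libraries, Klf4 was at 0.625 to 1.19 FPKM, and Klf2, which was tested and did not pass, was at 4.05 and 3.77 FPKM with Tox4 esiRNA against 4.24 and 4.81 FPKM with Luc esiRNA. Mitochondrial transcripts took 1.05% of the reads in each Tox4 esiRNA library, against 0.864% and 0.840% in the Luc esiRNA libraries, and the part of this difference in the results below was not tested.

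All 8 members averaged 1 FPKM or more over the libraries, which was the filter, and were tested. Mycn rose and Mnt fell with Tox4 esiRNA, and the other 6 did not pass the threshold, which was an adjusted p under 0.05 in limma over 12403 genes. Among all tested genes 1.89% were called higher and 2.62% lower. For 7 members the Tox4 esiRNA values lay wholly above or below the Luc esiRNA values, that is, the groups did not overlap, 3 of them higher and 4 lower, a pattern that 52.0% of all tested genes showed. An unadjusted p under 0.05 was found for 4 members and for 21.6% of all tested genes. The median log2 fold change was -0.05 over the members and -0.0034 over all tested genes. In bulk RNA, fewer cells expressing a gene and less RNA per cell cannot be told apart.

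**Figure D1:**
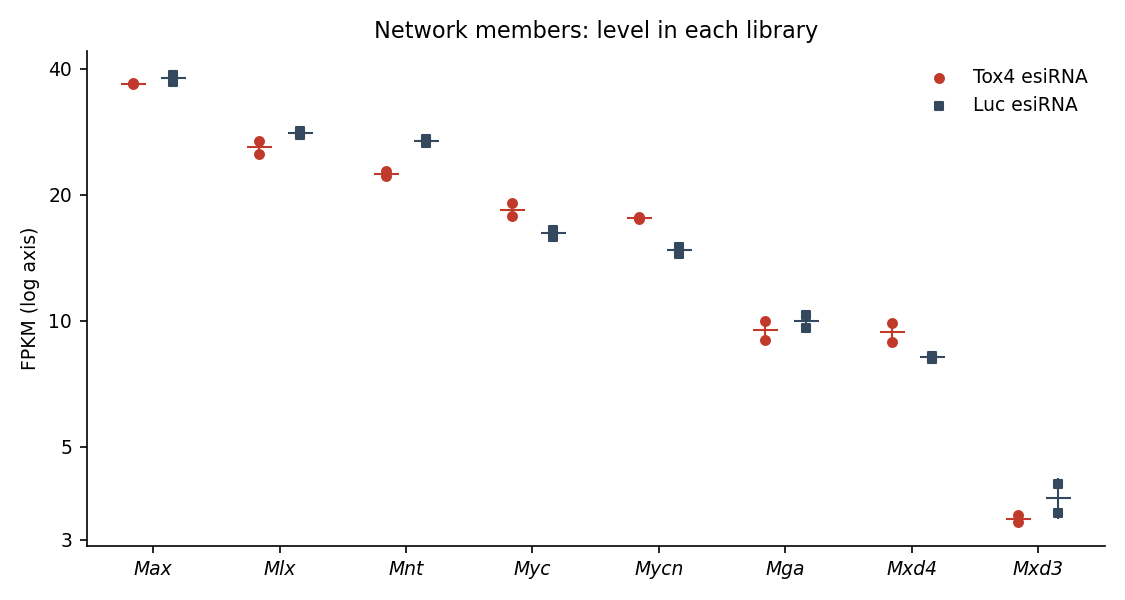
Level of each network member in FPKM (log axis), 1 point per library, with Tox4 esiRNA (circles) left of Luc esiRNA (squares); horizontal dashes are group means and vertical bars the SD (n = 2 each). Mycn sits higher and Mnt lower with Tox4 esiRNA, and the values of Mga overlap between the groups.

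The regions before the starts of Mycn and Mnt are shown because these were the members that passed the threshold, and the stretches around an E-box are shown for the other members that held one. The sequences are from RefSeq (GRCm38.p6), on the strand of the gene, with CACGTG in capitals. Those of Mycn (chr12:12941915-12942086, minus strand) and Mnt (chr11:74830674-74830919, plus strand) end just before the first annotated base of the gene. Those of Max (chr12:76962234-76962263, minus strand), Mxd4 (chr5:34187912-34187941, minus strand) and Mlx (chr11:101087238-101087267, plus strand) hold 12 bases on each side of the E-box.
Mycn: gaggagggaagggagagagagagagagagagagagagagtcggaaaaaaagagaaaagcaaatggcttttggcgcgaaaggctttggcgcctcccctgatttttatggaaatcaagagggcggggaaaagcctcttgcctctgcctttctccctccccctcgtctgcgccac
Mnt: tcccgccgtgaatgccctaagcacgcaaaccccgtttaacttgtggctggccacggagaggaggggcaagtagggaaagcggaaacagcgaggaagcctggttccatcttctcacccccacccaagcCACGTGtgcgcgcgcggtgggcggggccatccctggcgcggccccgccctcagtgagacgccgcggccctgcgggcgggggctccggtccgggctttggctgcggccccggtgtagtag
Max: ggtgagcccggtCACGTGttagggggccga
Mxd4: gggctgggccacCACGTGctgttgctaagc
Mlx: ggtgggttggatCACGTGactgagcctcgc

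CACGTG reads the same on both strands, so that 1 search covered both. Windows of 300 bases, 250 before to 50 after the start, were found for 7 members, all but Myc. The E-box was present in those of Max, Mxd4, Mnt and Mlx, with its first base 3, 219, 123 and 40 bases before the start, and these letters were not in the windows of Mycn, Mxd3 and Mga. Among all 27025 genes with a window, 8.09% held at least 1 E-box, and among all 32851 windows 7.15% did. Of the members that passed the threshold, Mnt held an E-box in its window and Mycn did not.

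Mycn encodes N-Myc, a Myc protein prominent in the embryo and in neural progenitors. It had 17.5 and 17.7 FPKM with Tox4 esiRNA, on 853 and 747 reads, against 15.0 and 14.4 FPKM with Luc esiRNA, on 944 and 715 reads. Both Tox4 esiRNA libraries were above both Luc esiRNA libraries, and the Tox4 esiRNA pair lay closer together. The mean was 17.6 ± 0.127 FPKM with Tox4 esiRNA and 14.7 ± 0.427 FPKM with Luc esiRNA (SD, n = 2 each), which is 19.5% higher. On the log2(FPKM + 1) scale, used throughout, Mycn changed by 0.24, with a 95% interval of 0.13 to 0.36 (SE 0.05, limma adjusted p = 0.0475). The direction was the same with any 1 library left out, at 0.21 to 0.27, but Mycn was then no longer past the threshold (limma adjusted p = 0.0881 and 0.104 without Tox4 replicate 1 and 2, and 0.179 and 0.230 without Luc replicate 1 and 2). It also missed it when genes with low values were kept (0.0657) and when no intensity trend was fitted (0.10). Mycn (ENSMUSG00000037169) lies on chromosome 12 from 12936093 to 12941914 (GRCm38, minus strand), and its exons overlap those of no other annotated gene.

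Some markers of neuroectoderm were higher in the same libraries as Mycn. Of 7 listed markers 5 had a row in the table, and their levels summed to 91.2 FPKM in each Tox4 esiRNA library, against 77.7 and 76.5 FPKM in the Luc esiRNA libraries. Sox1, Fabp7 and Ncam1 of 4 tested markers rose (2 to 3 of them with 1 library left out), Nes was at -0.06 on the log2 scale, and Pax6 stayed below 1 FPKM in all 4 libraries. Zic1 and Olig2 had no row. Among all tested genes 1.89% were called higher. Whether neuroectoderm cells were present, and any part of such cells in the level of Mycn, was not tested.

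Myc, the founding member of the family, had 17.8 and 19.1 FPKM with Tox4 esiRNA, on 705 and 656 reads, against 16.5 and 15.8 FPKM with Luc esiRNA, on 844 and 640 reads. The groups did not overlap, and the gap between them was slightly smaller than the difference between the Tox4 esiRNA libraries. Its estimate was 0.18 on the log2 scale (SE 0.05, 95% interval 0.05 to 0.31), which did not pass (limma adjusted p = 0.126). Over the 12 alternatives the adjusted p ranged from 0.0565 to 0.419, so that Myc was past the threshold in none of them. The difference between the changes of Myc and Mycn was not tested. Myc (ENSMUSG00000022346) lies on chromosome 15 from 61985391 to 61990374 (plus strand).

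The levels of Myc and Mycn were close to each other in every library. Myc was at 1.01 and 1.08 times the FPKM of Mycn with Tox4 esiRNA, and at 1.10 times in each Luc esiRNA library. Within each group their values did not overlap, with Myc above Mycn, but over all 4 libraries they did.

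Max, the shared partner of Myc, Mxd and Mnt proteins and of Mga, was the most abundant member. It had 36.9 and 36.7 FPKM with Tox4 esiRNA, on 971 and 838 reads, against 38.7 and 37.1 FPKM with Luc esiRNA, on 1313 and 995 reads. The Tox4 esiRNA values were just below the lower Luc esiRNA value, and the gap was smaller than the spread between the Luc esiRNA libraries. The estimate for Max was -0.04 on the log2 scale, with a 95% interval of -0.14 to 0.05 (SE 0.04, limma adjusted p = 0.602). Max (ENSMUSG00000059436) lies on chromosome 12 from 76937269 to 76962201 (minus strand).

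Among the antagonists Mnt fell. Mnt encodes a widely expressed repressor that pairs with Max and Mlx and recruits the Sin3 corepressor. It had 22.8 and 22.1 FPKM with Tox4 esiRNA, on 1570 and 1321 reads, against 26.6 and 27.2 FPKM with Luc esiRNA, on 2366 and 1906 reads. The gap between the groups was several times the spread within either of them. The mean was 22.4 ± 0.473 FPKM with Tox4 esiRNA and 26.9 ± 0.392 FPKM with Luc esiRNA (SD, n = 2 each), a fall by 16.6%. On the log2 scale Mnt changed by -0.25 (SE 0.04, 95% interval -0.35 to -0.15, limma adjusted p = 0.0338). Without Luc replicate 1 or 2 and without Tox4 replicate 2, Mnt was no longer past the threshold (limma adjusted p = 0.165, 0.189 and 0.0731), whereas without Tox4 replicate 1 it was (0.0496). It missed it with no intensity trend (0.0922), and its log2 fold change stayed between -0.27 and -0.23 in all 12 alternatives. Mnt (ENSMUSG00000000282) lies on chromosome 11 from 74830920 to 74845725 (plus strand), with no exon shared with another annotated gene.

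Mxd4, an Mxd protein found in resting and differentiating cells, was above its control without passing. It had 8.92 and 9.86 FPKM with Tox4 esiRNA, on 501 and 480 reads, against 8.24 and 8.12 FPKM with Luc esiRNA, on 597 and 464 reads. The groups did not overlap, but the Tox4 esiRNA libraries were farther from each other than the lower of them was from the Luc esiRNA libraries. Its log2 estimate was 0.18, with a 95% interval of 0.02 to 0.34 (SE 0.07, limma adjusted p = 0.196). Of its annotated exon bases on chromosome 5 (34173883 to 34187720, minus strand) 6.06% are shared with Gm42846, an antisense RNA that was not analysed here. Use of strand in counting is not stated, and without it reads of such a pair cannot be told apart.

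Mxd3, which is known for expression in proliferating cells, was the least abundant member. It had 3.31 and 3.43 FPKM with Tox4 esiRNA, on 59 and 53 reads, against 3.48 and 4.08 FPKM with Luc esiRNA, on 80 and 74 reads. At these reads, counting error would be 11.2% to 13.7% of the value in a library, beside a 10.8% difference of the group means. The recovery took the smallest reads that fit, so the true reads may be higher by a common factor and this error smaller. Whether a difference of this size was detectable at this depth was not tested. For Mxd3 the log2 estimate was -0.13, with a 95% interval of -0.36 to 0.10 (SE 0.09, limma adjusted p = 0.498). Mxd3 lies on chromosome 13 from 55325168 to 55329823 (minus strand), and 105 of its exon bases, 4.43% of them, overlap exons of Prelid1 on the opposite strand. Prelid1, the gene of a mitochondrial lipid-transfer protein, was at 236 and 246 FPKM with Tox4 esiRNA and at 263 and 257 FPKM with Luc esiRNA.

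Mga, a very large protein that also carries a T-box domain and is the scaffold of the Polycomb complex PRC1.6, was the member whose groups overlapped. It had 9.97 and 9.02 FPKM with Tox4 esiRNA, on 2059 and 1615 reads, against 9.62 and 10.3 FPKM with Luc esiRNA, on 2564 and 2172 reads. Mga had a log2 estimate of -0.07 and a 95% interval of -0.23 to 0.10 (SE 0.07, limma adjusted p = 0.641). With Tox4 replicate 2 left out the estimate was -0.00068, and with Tox4 replicate 1 left out it was -0.13. The gene has an exon length of 13695 bases in the authors' scaling, the longest of the members. Among the 532 tested genes of at least 8000 bases, Tox4 replicate 1 exceeded replicate 2 by a median of 0.10 on the log2 scale, against -0.0045 among the other 11871 genes, and Luc replicate 1 minus replicate 2 had medians of -0.06 and 0.0023. Mga (ENSMUSG00000033943) lies on chromosome 2 from 119897228 to 119969581 (plus strand).

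Mlx, the partner of MondoA and ChREBP, had 25.0 and 26.8 FPKM with Tox4 esiRNA, on 743 and 689 reads, against 27.8 and 28.3 FPKM with Luc esiRNA, on 1062 and 856 reads. The groups did not overlap, and the Tox4 esiRNA libraries differed more from each other than the higher of them did from the lower Luc esiRNA library. Mlx had a log2 estimate of -0.11, and its 95% interval ran from -0.23 to 0.0047 (SE 0.05, limma adjusted p = 0.252). Mlx lies on chromosome 11 from 101087277 to 101092207 (plus strand), and 385 of its exon bases, 19.3% of them, overlap exons of Psmc3ip, a meiotic recombination gene, on the opposite strand. Psmc3ip was at 44.1 and 49.5 FPKM with Tox4 esiRNA and at 45.0 and 44.4 FPKM with Luc esiRNA.

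In the order of levels, which FPKM allows because it is per length, Max was followed by Mlx, Mnt, Myc, Mycn, Mga, Mxd4 and Mxd3, in the means of either group. Within the Luc esiRNA libraries no neighbours in this order overlapped. Within the Tox4 esiRNA libraries Mga and Mxd4 did, at 9.49 ± 0.671 and 9.39 ± 0.664 FPKM (SD, n = 2 each). Over all 4 libraries Mlx and Mnt, Myc and Mycn, and Mga and Mxd4 overlapped as pairs. Among all tested genes, Max was at the 82.4th percentile of mean level, Myc and Mycn at the 61.8th and 59.7th, and Mxd3 at the 19.9th.

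**Figure D2:**
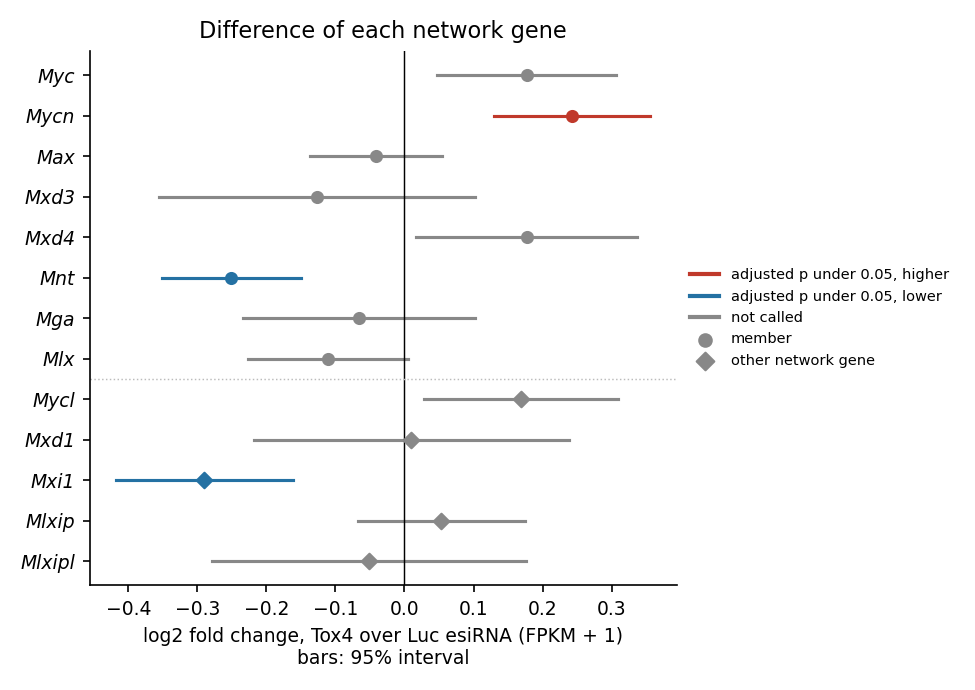
Log2 fold change of Tox4 over Luc esiRNA on the log2(FPKM + 1) scale with its 95% interval (limma, n = 2 each), for the 8 members (circles) and 5 other genes of the network (diamonds). Mycn is called higher, Mnt and Mxi1 are called lower, and the other 10 are not called.

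The summed transcripts of Myc and Mycn, and those of the antagonists among the members, differed from their controls in opposite directions. Of these antagonists, Mxd4 by itself was higher with Tox4 esiRNA, at a mean of 9.39 against 8.18 FPKM. Mycl, Mxd1 and Mxi1, which are not members, are outside the sums. Myc and Mycn together had 35.3 and 36.7 FPKM with Tox4 esiRNA, against 31.5 and 30.3 FPKM with Luc esiRNA. Mxd3, Mxd4, Mnt and Mga together had 45.0 and 44.4 FPKM with Tox4 esiRNA, against 48.0 and 49.7 FPKM with Luc esiRNA. The ratio of the sums was 0.784 and 0.827 with Tox4 esiRNA and 0.657 and 0.609 with Luc esiRNA, so that both Tox4 esiRNA libraries were above both controls. These sums add transcripts per length and are given as a description without a test. They are not amounts of protein. The rise of the first sum rests on both Mycn and Myc. The antagonist sum averaged 44.7 FPKM with Tox4 esiRNA and 48.8 FPKM with Luc esiRNA. Mnt alone averaged 22.4 and 26.9 FPKM, a fall at least as large as that of the sum. The lower sum and the ratio therefore do not show a fall of the antagonists as a group. Mxd3 (3.37 and 3.78 FPKM) and Mga (9.49 and 9.98 FPKM) were lower by far less.

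**Figure D3:**
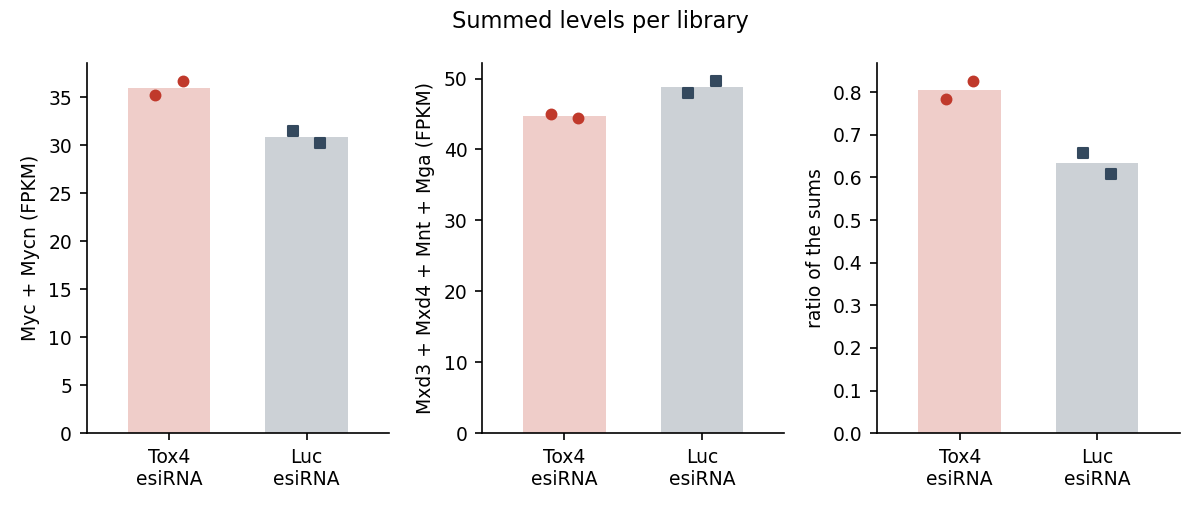
Sums of FPKM per library for Myc and Mycn (left), for Mxd3, Mxd4, Mnt and Mga (middle), and their ratio (right). Points are libraries and bars are group means, with Tox4 esiRNA left of Luc esiRNA; the ratio averages 0.806 and 0.633.

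The network has 5 further genes outside the set of members, which were all tested. Mxi1, an Mxd-type repressor that pairs with Max and binds Sin3, fell, and the other 4 did not pass. Mxi1 had 18.7 and 20.3 FPKM with Tox4 esiRNA, on 259 and 244 reads, against 23.9 and 24.3 FPKM with Luc esiRNA, on 426 and 342 reads (log2 fold change -0.29, SE 0.05, limma adjusted p = 0.0415). Leaving out Luc replicate 1, Luc replicate 2 or Tox4 replicate 1 ended this call (0.179, 0.196 and 0.0750), as did keeping genes with low values (0.0631) and fitting no intensity trend (0.102). Mycl, the third Myc gene, listed in the table under its older symbol Mycl1, had 12.6 and 13.0 FPKM with Tox4 esiRNA, against 11.7 and 10.8 FPKM with Luc esiRNA (0.17, limma adjusted p = 0.164). Of the 3 Myc genes, Mycn was past the threshold, and Myc and Mycl were not. Their estimates were 0.24, 0.18 and 0.17 in this order, and the differences among them were not tested.

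The remaining genes were closer to 0. Mxd1 was at 2.69 ± 0.0936 FPKM with Tox4 esiRNA and 2.66 ± 0.192 FPKM with Luc esiRNA (log2 fold change 0.0098). Mlxip, the gene of MondoA, was at 11.1 ± 0.114 FPKM with Tox4 esiRNA and 10.7 ± 0.0357 FPKM with Luc esiRNA (0.05). Mlxipl, the gene of ChREBP, was at 4.92 ± 0.646 FPKM with Tox4 esiRNA and 5.11 ± 0.0789 FPKM with Luc esiRNA (-0.05, SD and n = 2 each as above). The direction of Mxd1 and Mlxipl turned when single libraries were left out.

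Cofactors that the network uses were read against the shares of all tested genes given above, 1.89% called higher and 2.62% lower. Of 16 genes of Myc coactivators, among them the TRRAP and TIP60-p400 complexes, Kat5, which encodes the acetyltransferase TIP60, fell and 15 did not pass (median log2 fold change -0.0053). Kat5 had 29.4 and 28.6 FPKM with Tox4 esiRNA against 33.2 and 34.3 FPKM with Luc esiRNA (-0.21, SE 0.04, limma adjusted p = 0.0470), and it did not pass with any 1 library left out (0.0680 to 0.229), with low genes kept (0.0684) or with no intensity trend (0.117). Of 11 genes for the Sin3 corepressor, 0 passed in limma, with 2 at an unadjusted p under 0.05 (21.6% of all tested genes) and 1 called lower in limma-voom (median 0.03). Its largest estimates were those of Sap30 (-0.21, adjusted p = 0.125) and Sin3b (-0.13, adjusted p = 0.159). The estimate of Sap30 depended on the libraries used: it was -0.12 without Tox4 replicate 1 and -0.30 without Tox4 replicate 2.

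Neither the partners of Mga nor the enzymes that act on Myc protein held a call. Of 9 genes of the PRC1.6 complex 0 passed in limma and 0 in limma-voom, with 2 at an unadjusted p under 0.05, a share near the 21.6% of all tested genes (median 0.07), and its largest estimates were those of Ring1 (0.18) and Cbx3 (0.13). Of 11 genes of Myc turnover, such as the ubiquitin ligase subunit genes Fbxw7 and Skp2, 0 passed in limma and 0 in limma-voom, with 0 at an unadjusted p under 0.05. Their estimates lay between -0.02 and 0.11, with Ppp2r5a, a phosphatase subunit gene, and Huwe1, a ubiquitin ligase gene, at 0.11 and 0.08. Only transcripts were measured, so that nothing is known of Myc protein here.

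**Figure D4:**
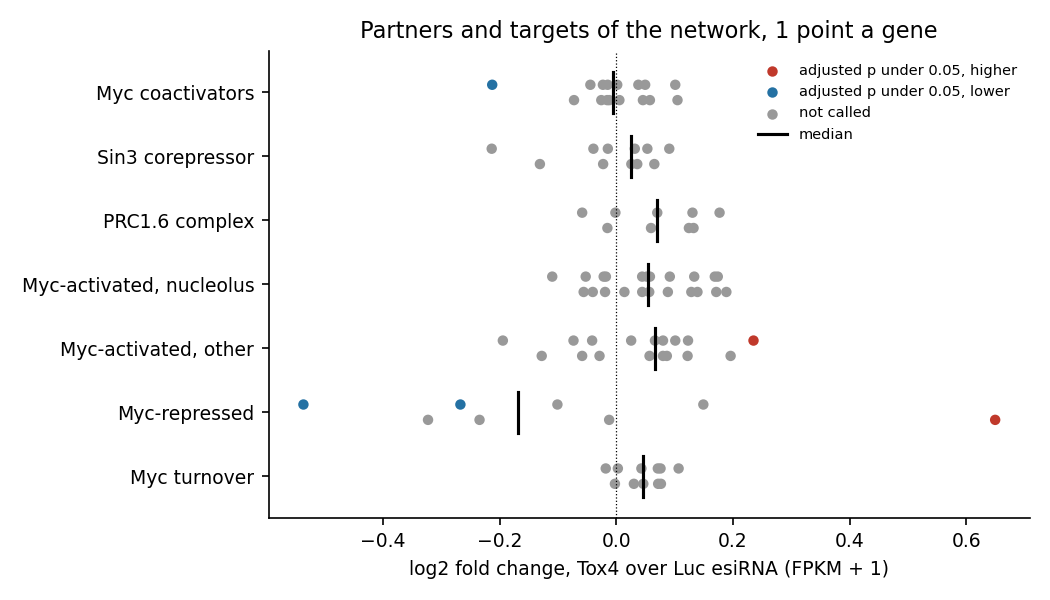
Log2 fold change of Tox4 over Luc esiRNA for each tested gene of 7 lists of partners and targets of the network, with the list median as a black line and genes past the threshold in colour. Most points lie within 0.2 of 0, and the genes repressed by Myc hold calls on both sides.

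Of genes known to be activated by Myc, 1 passed the threshold. Of 22 genes of the nucleolus and ribosome production 0 passed in limma, with 10 at an unadjusted p under 0.05, against 21.6% of all tested genes, and 5 called higher in limma-voom, which called 780 of all 12403 genes higher (median log2 fold change 0.05, 15 of 22 above 0). The groups did not overlap for 17 of the 22, against 52.0% of all tested genes. Of the 17, Npm1, Nop16, Gnl3 and Mrto4 were lower with Tox4 esiRNA and the rest higher. Nop16 was also among the 10 with an unadjusted p under 0.05. The largest estimates were those of Utp20 (17.4 and 16.6 FPKM with Tox4 esiRNA, against 14.7 and 15.0 FPKM with Luc esiRNA, an estimate of 0.19, limma adjusted p = 0.0877) and Grwd1 (0.17, adjusted p = 0.102). Both encode ribosome assembly proteins. The abundant nucleolar genes Ncl and Npm1, named after their values were seen, were at -0.02 and -0.06.

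Of 17 further activated targets, from polyamine synthesis to the cell cycle, Ccnd2, the gene of cyclin D2, rose and 16 did not pass (median 0.07). An unadjusted p under 0.05 in limma was found for 6 of the 17, against 21.6% of all tested genes. The groups did not overlap for 10 of the 17, against 52.0%. Tmem97, named after its values were seen, had the lowest estimate, at -0.19 (limma adjusted p = 0.0508). In limma-voom 2 genes of this list were called higher and 1 lower, and 1 was also called lower without Tox4 replicate 2. Ccnd2 had 41.4 and 39.7 FPKM with Tox4 esiRNA, against 34.2 and 34.3 FPKM with Luc esiRNA (0.24, SE 0.04, limma adjusted p = 0.0348), and it was not past the threshold without Tox4 replicate 1 (0.0759) or without Luc replicate 1 or 2 (0.179 and 0.174), with low genes kept (0.0530) or with no intensity trend (0.103). Of the genes with a window, 33.3% held at least 1 E-box in each list of activated targets, 6 of 18 and 5 of 15. Among all genes with a window the share was 8.09%.

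Genes known to be repressed by Myc moved in both directions. Of 8 tested genes Cdkn1a rose, Ndrg1 and Ndrg2 fell and 5 did not pass (median -0.17). Among all tested genes 1.89% were called higher and 2.62% lower. An unadjusted p under 0.05 in limma was found for 6 of the 8, against 21.6% of all tested genes. The groups did not overlap for 6 of the 8, against 52.0%. The number called lower was 4 in limma-voom, 1 without Luc replicate 1 or 2, and 2 to 3 without a Tox4 library, while 1 was called higher in each of these. Ndrg1, a stress- and hypoxia-responsive gene, had 79.0 and 84.3 FPKM with Tox4 esiRNA, against 118 and 120 FPKM with Luc esiRNA (-0.54, SE 0.04, limma adjusted p = 0.00407), and stayed past the threshold with each library left out but not with no intensity trend (0.0511). Ndrg2 had 42.7 and 42.4 FPKM with Tox4 esiRNA, against 51.5 and 51.3 FPKM with Luc esiRNA (-0.27, SE 0.03, adjusted p = 0.0179), and lost its call without Luc replicate 1 or 2 (0.126 and 0.116) and with no intensity trend (0.0781). Cdkn1a, the gene of the cell cycle inhibitor p21 and also a p53 target, had 82.8 and 87.6 FPKM with Tox4 esiRNA, against 54.8 and 53.1 FPKM with Luc esiRNA (0.65, SE 0.04, adjusted p = 0.00265). None of the windows of the 6 genes of this list that had one held an E-box.

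Targets of the Mlx branch were measured by Txnip and Arrdc4, a pair of arrestin-family genes that respond to glucose. Txnip had 101 and 102 FPKM with Tox4 esiRNA, against 92.7 and 92.0 FPKM with Luc esiRNA (0.13, SE 0.03, limma adjusted p = 0.0756). Arrdc4 had 16.5 and 16.8 FPKM with Tox4 esiRNA, against 14.8 and 14.4 FPKM with Luc esiRNA (0.18, SE 0.05, adjusted p = 0.0940). The groups did not overlap for either gene, as for 52.0% of all tested genes. Both missed the threshold here and were called higher in limma-voom on the recovered reads (adjusted p = 0.0179 and 0.0275).

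Of 14 germline genes listed as targets of repression by Mga and PRC1.6, 4 had a row in the table and 3 were tested. Sycp3, a gene of the meiotic chromosome axis, fell (-0.65, limma adjusted p = 0.0479) on 6 and 5 reads with Tox4 esiRNA against 19 and 15 with Luc esiRNA, and it missed the threshold with a pseudocount of 0.1 or 0.5 (0.0591 and 0.0503), in limma-voom (0.0514), with low genes kept (0.0801) and with any 1 library left out (0.0834 to 0.202). In limma-voom 0 of the 3 were called lower and 1 was called higher. Tdrkh, a Tudor-domain gene named after its values were seen, was not silent in these cells, at 38.1 ± 0.439 FPKM with Tox4 esiRNA and 33.5 ± 0.713 FPKM with Luc esiRNA (SD, n = 2 each; 0.18, adjusted p = 0.0581). The E-box was present in the windows of 8 of the 13 listed genes that had one, or 61.5%, against 8.09% of all genes.

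As a description over 4 libraries, the genes nearest to Myc in profile were H2afj, Enkd1 and Bloc1s5, with a root mean square distance of 0.00379 to 0.00589 between centred log2 values. Near Mycn were mt-Co1 and Camkv (0.00458 and 0.00468), and those nearest to Max were Taz, Ttf2 and Tcp1 (0.00314 to 0.00412). With 4 libraries many genes are near: 40.5% of the 9065 genes compared lay within 0.1 of Myc, 23.0% within 0.1 of Mycn and 79.7% within 0.1 of Max.

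Markers of further cell types were set beside these results, and their part in the results was not tested. Fibroblast markers, of which 6 of 7 had a row, summed to 18.2 and 19.0 FPKM with Tox4 esiRNA and to 20.4 FPKM in each Luc esiRNA library, and 0 of 4 tested passed in limma, with 1 called lower in limma-voom and 1 at an unadjusted p under 0.05. Trophoblast and primitive endoderm markers, 5 of 8 with a row, summed to 148 and 154 FPKM with Tox4 esiRNA against 192 and 197 FPKM with Luc esiRNA, and the 3 tested, Krt8, Krt18 and Sparc, fell (0 to 3 of them with 1 library left out). Among all tested genes 2.62% were called lower. Cdx2, Elf5 and Gata4 of this list had no row, so the calls rest on Krt8, Krt18 and Sparc alone. Whether trophoblast or endoderm cells were present was not tested. Sparc made up most of the sum of trophoblast and endoderm markers, at a mean of 107 FPKM with Tox4 esiRNA and 136 FPKM with Luc esiRNA. The rest of that list with a row was too low to be tested and went both ways. Gata6 averaged 0.717 FPKM with Tox4 esiRNA and 0.856 FPKM with Luc esiRNA, and Sox17 0.903 and 0.597 FPKM. Primitive streak markers, 4 of 5 with a row, summed to 24.5 and 24.3 FPKM with Tox4 esiRNA against 35.3 and 33.8 FPKM with Luc esiRNA, and 1 of the 4 tested, T, the gene of Brachyury, fell. Eomes, Gsc and Foxa2 were lower without passing. Of the 4, 3 had an unadjusted p under 0.05 in limma, against 21.6% of all tested genes. The groups did not overlap for 3, against 52.0%, and limma-voom called 2 lower. No marker with a row in these lists was listed at 0 in all 4 libraries.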

How the data were processed

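Polyadenylated RNA of 4 libraries was analysed. The authors deposited FPKM values per gene and library, in a series table and in single files that held identical values for all 15429 genes. The submitters' processing notes name CASAVA 1.8, STAR 2.3.0e and the build GRCm38.p1; the sources used here do not give the counting program, the annotation or the use of strand. Within each gene the deposited FPKM values were whole multiples of a common step for 100% of values (relative tolerance 2e-13). Reads and exon lengths were worked out from this step. The smallest reads with a whole exon length were taken, so that a common factor was applied in 4.39% of tested genes. Where reads and length share a further factor, the reads given are too low. In each library the recovered reads came to 97.7% of the depth used in scaling. Totals of 12778059 to 19008831 reads set the precision, and counting errors cover that source only. The chi-square per degree of freedom between replicates was 1.89 for Tox4 esiRNA and 1.59 for Luc esiRNA, so no library was counted as a copy.

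Genes averaging 1 FPKM or more were tested on log2(FPKM + 1) by limma 3.58.1 (R 4.3.3). The tests were two-sided, with the variance prior following intensity, no covariate, 2 residual and 4.01 prior degrees of freedom, and Benjamini-Hochberg adjustment over 12403 genes at 0.05. Such a fold change understates that of low genes. The fit and the read recovery were tested on simulated data. Coordinates and exon overlaps came from GENCODE (GRCm38), which held 98.7% of the identifiers, and promoter windows from RefSeq (GRCm38.p6). Genes outside the members were named by rule: those past the threshold, up to 4 a list, or the 2 largest estimates where none passed; all of the other network genes and Mlx targets; genes with exons overlapping a member; and the 3 nearest profiles of Myc, Mycn and Max among genes of at least 5 FPKM, of which 1 is not reported here. Members and lists were chosen with earlier results of these data known. Some listed genes had no row and were not analysed here. Alternatives changed the pseudocount, filter, variance model, scaling, unit (limma-voom on recovered reads), replicate block and the libraries used.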

Additional observations from a re-analysis of the deposited data

How the results depend on the processing

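All 8 members kept their direction in every alternative, but both calls were near the threshold. With single libraries left out, 0 members were called higher in each of the 4 fits and 0 to 1 lower, while 27 to 176 genes in all were called higher and 34 to 296 lower. Such fits have 1 residual degree of freedom, and the group with 1 library is assumed to vary like the other. Members called higher numbered 0 with no filter, with no intensity trend and with the replicate block, and members called lower 0 with no intensity trend. Over all genes, 146 were called higher and 202 lower with no filter, 365 higher with a mean of at least 5 FPKM (476 lower, which is within 1.5 times), 33 and 45 with no intensity trend, and 780 and 724 in limma-voom on recovered reads. A mean of at least 5 FPKM left Mxd3 untested. Same-numbered libraries did not deviate together (correlation of deviations -0.04 over 12403 genes), so the replicate numbers are not taken as pairs; with them as a block 222 genes were called higher and 334 lower, and the calls of Mycn, Kat5 and Sycp3 were lost (adjusted p = 0.0686, 0.0687 and 0.0639). With reads scaled to library size alone in place of FPKM, the ratio of summed Myc and Mycn to summed antagonists was 0.388 with Tox4 esiRNA and 0.306 with Luc esiRNA, against 0.806 and 0.633. With single libraries left out, estimates that were not called turned direction for Mxd1 (-0.0437 to 0.0633), Mlxipl (-0.163 to 0.0606), Huwe1 (-0.0365 to 0.189) and Pou5f1 (-0.0059 to 0.0664). Low genes such as Mxd3 and Sycp3 rest on few recovered reads, and the part of depth in their results was not tested.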
